A study of Mus musculus with 11 samples.

Results

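Heat shock proteins and other molecular chaperones were examined in mammary glands bearing PN1a or PN1b lesions. Earlier results of these data were known when the rule for members was set. Members were chosen by gene symbol from the probe sets annotated to a single gene, and the rule itself used no measured value. They were the Hsp, DnaJ and Cct families together with *Tcp1*, *Hsf1*, *Hsf2*, *Bag3*, *Xbp1*, *Ddit3*, *Atf4*, *Canx*, *Hyou1*, *P4hb*, *Pdia3*, *Pdia4* and *Pdia6*. The rule took 95 of the 12422 probe sets tested, for 67 of the 8251 genes with such a probe set. *Hsf1* and *Hsp90ab1* were not analysed here.

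PN1a and PN1b are lines of hyperplastic ductal outgrowths, derived from opposite glands of 1 mouse, whose epithelium lacks p53 (*Trp53*-/-, Balb/c) and has been passaged by serial transplantation. The tissue grew in wildtype Balb/c hosts, females of 3 weeks at transplantation whose fat pads had been cleared of epithelium, and RNA was taken from whole glands 8 weeks after transplantation, so both groups also hold the host's stroma, fat and immune cells. There were 5 PN1a samples (high tumor-forming potential) and 6 PN1b samples (low tumor-forming potential), each on 1 Affymetrix MG_U74Av2 array. The labels do not say whether samples of a group came from separate mice, so p-values measure only the spread between these samples. PN1a 1 and 2 have a number as title and PN1a 3 to 5 a letter. The titles of PN1b 1 to 4 are ranges, which could be pools, and those of PN1b 5 and 6 hold letters. The meaning of these titles is not given. All 5 PN1a samples share a title ending with PN1b 5 and 6, while PN1b 1 to 4 have other endings. Line and title ending are therefore largely confounded.

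Chaperones bind unfolded proteins and help them fold, and many are induced when proteins are damaged. In the cytosol, heat shock factor 1 (HSF1) binds heat shock elements and switches on the inducible HSP70 proteins, their J protein partners and the nucleotide exchange factors HSPH1 and BAG3. In the endoplasmic reticulum (ER), unfolded proteins activate XBP1, ATF4 and ATF6, which raise ER chaperones such as HSPA5 (BiP). The TRiC chaperonin folds actin and tubulin, and HSP60 with HSP10 serves the mitochondrial matrix. In the mammary gland the secretory epithelium carries a large ER.

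Promoters of *Hspa1a*, *Hspa1b*, *Hsph1* and *Dnajb9*, called lower within PN1a in the values given further on, are printed here, with *Hspa5* as an ER chaperone that holds the ER stress element. They are the 250 bases before the annotated start in RefSeq (GRCm38.p6), which held 58 of the 67 genes. Capitals mark the heat shock element, searched as GAANNTTC or TTCNNGAA (each reads the same on the other strand), or, in *Hspa5*, the ER stress element, searched in its full consensus form on both strands. The regions are chr17:34972157-34972406 for Hspa1a, chr17:34959239-34959488 for Hspa1b chr5:149636337-149636586 for Hsph1 and chr12:44210069-44210318 for Dnajb9, all on the minus strand, and chr2:34771840-34772089 on the plus strand for Hspa5.
Hspa1a: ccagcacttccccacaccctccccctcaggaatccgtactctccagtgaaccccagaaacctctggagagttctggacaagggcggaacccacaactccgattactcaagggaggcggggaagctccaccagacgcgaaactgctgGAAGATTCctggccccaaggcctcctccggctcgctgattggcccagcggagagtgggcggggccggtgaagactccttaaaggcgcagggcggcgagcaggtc
Hspa1b: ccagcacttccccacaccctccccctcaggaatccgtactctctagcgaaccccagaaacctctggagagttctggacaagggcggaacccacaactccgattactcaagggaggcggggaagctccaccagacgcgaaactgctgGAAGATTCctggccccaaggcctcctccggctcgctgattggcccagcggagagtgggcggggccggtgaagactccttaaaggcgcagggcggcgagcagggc
Hsph1: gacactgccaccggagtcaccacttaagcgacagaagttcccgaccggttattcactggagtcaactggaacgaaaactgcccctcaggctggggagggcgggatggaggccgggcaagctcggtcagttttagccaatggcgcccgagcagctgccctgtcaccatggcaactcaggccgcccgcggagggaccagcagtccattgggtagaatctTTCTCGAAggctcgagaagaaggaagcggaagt
Dnajb9: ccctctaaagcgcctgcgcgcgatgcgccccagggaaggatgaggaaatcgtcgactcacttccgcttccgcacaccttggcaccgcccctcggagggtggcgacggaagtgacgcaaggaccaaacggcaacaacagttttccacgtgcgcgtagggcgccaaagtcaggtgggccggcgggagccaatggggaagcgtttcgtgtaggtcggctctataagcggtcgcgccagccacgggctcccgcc
Hspa5: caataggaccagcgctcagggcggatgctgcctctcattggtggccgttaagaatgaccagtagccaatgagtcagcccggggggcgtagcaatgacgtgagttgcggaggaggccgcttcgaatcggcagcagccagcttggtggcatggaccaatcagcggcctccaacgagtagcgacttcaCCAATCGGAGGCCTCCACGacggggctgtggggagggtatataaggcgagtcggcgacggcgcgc
The heat shock element began 104 bases before the start in both *Hspa1a* and *Hspa1b*, and 33 bases before it in *Hsph1*. The *Hspa1a* and *Hspa1b* promoters are the same at 247 of 250 bases. These genes are near-identical copies, so how their probe sets divide the signal of the pair is uncertain. The ER stress element of *Hspa5* began 65 bases before the start. Neither pattern of letters is in the *Dnajb9* window. Heat shock elements were found in 12 of the 58 genes (20.7%) and in 14.5% of all genes in the table. These were *Hspa1a*, *Hspa1b*, *Hsph1*, *Dnaja1*, *Dnajb4*, *Dnajb6*, *Dnajc10*, *Hspb1*, *Hspd1*, *Hspe1*, *Cct2* and *Cct5*. The ER stress element was found in *Hspa5*, *Hsp90b1*, *Canx*, *Dnajc3* and *Pdia6*, which is 8.62% of the 58 genes against 0.13% of all genes. A match describes the letters of the window and does not show binding.

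All values below are log2 of the deposited intensity unless a fold change is named, and levels of different probe sets are not compared. A probe set was called when limma's adjusted p (Benjamini-Hochberg over 12422 probe sets) was under 0.05 and its fold change at least 1.5. Of the 95 members, 67 had a mean above that of the median probe set. The median of all single values was 3.17. The spread over the 11 samples, as an SD, had a median of 0.416 among members and 0.464 among all probe sets. An SD above 1 was found in 7.37% of members and 4.42% of all probe sets. *Hspa1a* varied most (SD 2.65), followed by *Dnajb1* (1.53), *Hspa1b* (1.42), *Hsph1* (1.25) and *Dnajb9* (1.17). PN1a 1 and 2 stood apart from the other 9 arrays in the 18S ribosomal RNA control (3' probe set), at 7.38 and 8.02 against 2.43 to 5.03, and in their immediate early genes, described further on. Their log2 ratio of 3' to 5' signal for *Gapdh*, a sign of RNA quality, was -0.27 and -0.18 against 0.32 to 2.38 in the other 9. The ratios of the other such controls overlapped. They were 0.45 and 0.58 against 0.40 to 2.27 for beta-actin and 1.58 and 1.79 against 1.02 to 3.11 for pyruvate carboxylase. For the transferrin receptor they were 1.27 and 1.11 against 0.20 to 1.41.

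To learn whether chaperone expression differs between lesions of high and low tumor-forming potential, PN1a was compared with PN1b. Among all probe sets 2.49% were called, 108 higher and 201 lower in PN1a (155 higher and 186 lower with each sample centred on its median). Among the 95 members 1 was called, *Dnajc4*, which was higher in PN1a (background 0.869% called higher and 1.62% called lower). At an unadjusted p under 0.05 there were 23 members (24.2%, against 18.9% of all probe sets), 10 of them higher and 13 lower in PN1a. The median log2 fold change of the members was 0.00, against -0.01 for all probe sets. By role the median was -0.36 for cytosolic HSP70 and HSP110 (8 of 13 probe sets below 0), -0.22 for J proteins (17 of 25), 0.10 for TRiC (4 of 14) and 0.21 for ER chaperones (8 of 22). Without PN1a 1 and 2 these medians were -0.03, -0.08, 0.14 and 0.24, in the same order.

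Within PN1a, the number-titled samples (PN1a 1 and 2) were compared with the letter-titled samples (PN1a 3 to 5), in a fit that held PN1b as a separate group. This comparison was made knowing that PN1a 1 and 2 stand apart. Of all probe sets 5.49% were called (156 higher and 526 lower in the number-titled samples). Of the members 7 were called and all were lower, which is 7.37% against a background of 4.23% called lower and 1.26% called higher. They were *Hspa1a*, *Hspa1b*, *Hsph1*, *Dnajb4*, *Bag3*, *Atf4* and *Dnajb9*. Both number-titled samples lay below all 9 other samples in 17 members (background 10.1%) and above them in 5 (background 8.84%). Heat shock elements were present in the promoters of 4 of the 7 genes called, *Hspa1a*, *Hspa1b*, *Hsph1* and *Dnajb4*. The share was 20.7% of the 58 member genes with a promoter and 14.5% of all genes. *Hspa1a* and *Hspa1b* have nearly the same promoter, so they do not count as separate cases. The motif share of the called genes was not tested. Between the letter-titled PN1a samples and PN1b, 1.34% of probe sets were called (0.684% higher and 0.66% lower), and again *Dnajc4* was the 1 member called. The letter-titled PN1a samples lay above all PN1b samples in 4 members (background 3.96%) and below them in 2 (background 4.55%).

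**Figure D1:**
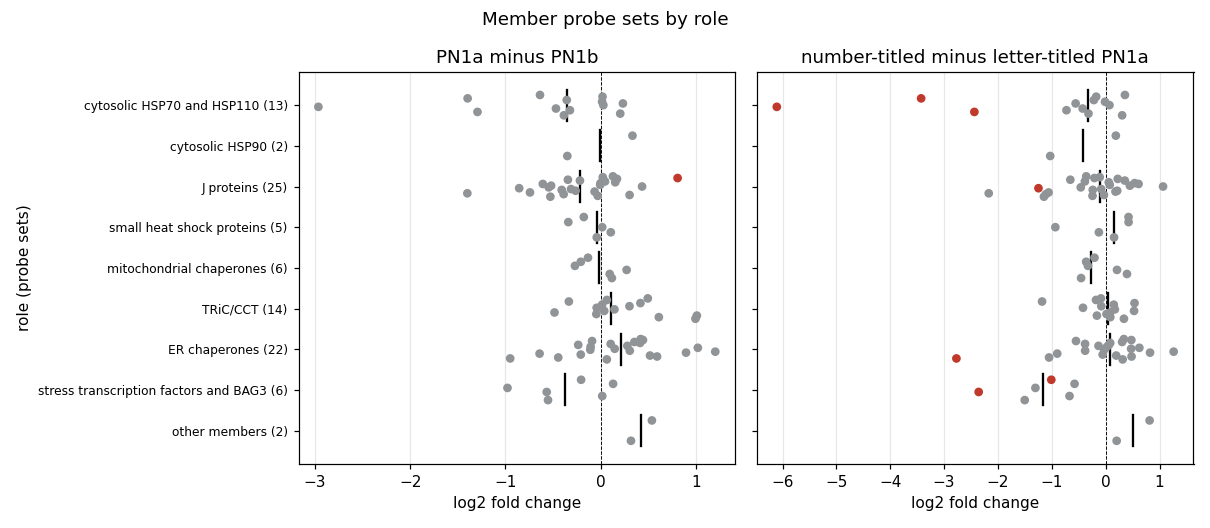
Log2 fold change of each of the 95 member probe sets, by role, for PN1a minus PN1b (left) and for number-titled minus letter-titled PN1a samples (right). Each point is a probe set, red if called, and black bars are medians. The only red point on the left is Dnajc4, and the 7 on the right are all below 0. The horizontal scales of the panels differ.

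The inducible cytosolic HSP70 genes differed more between samples of PN1a than between PN1a and PN1b. *Hspa1a*, which encodes stress-inducible HSP70, was 2.32 and 2.78 in PN1a 1 and 2. In PN1a 3, 4 and 5 it was 8.65, 8.93 and 8.39. In PN1b it ran from 8.38 to 9.90 (median 9.21). The number-titled samples were thus far below all others, while letter-titled PN1a and PN1b samples overlapped. The log2 fold change of number-titled against letter-titled samples was -6.11 (SE 0.398, adjusted p = 2.63e-06) and with 16 added to each intensity it was -4.26. Both number-titled values lie below the level of the median probe set, and the table holds no detection calls, so the size of the difference is uncertain. The same holds for *Atf3* and *Dnajb9* below. *Hspa1a* in all PN1a against PN1b gave -2.96 (SE 1.14, adjusted p = 0.177), and letter-titled PN1a against PN1b gave -0.52 (95% confidence interval -1.21 to 0.16).

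*Hspa1b*, the neighbouring copy on chromosome 17, was 6.25 and 6.95 in PN1a 1 and 2. It was 10.01, 10.07 and 10.00 in PN1a 3 to 5, and 9.50 to 10.47 (median 10.13) in PN1b. The number-titled samples were again the lowest of all 11, and the letter-titled ones lay within the range of PN1b. Number- and letter-titled PN1a samples differed by -3.43 on the log2 scale (SE 0.309, adjusted p = 3.69e-05). Against PN1b, the letter-titled samples differed by -0.03 (95% confidence interval -0.51 to 0.46).

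*Hsph1*, an HSP110 protein that exchanges the nucleotide of HSP70, was 5.51 and 4.60 in PN1a 1 and 2. It was 7.15, 7.72 and 7.61 in PN1a 3 to 5 and 6.41 to 8.59 (median 7.86) in PN1b. Its log2 fold change between number- and letter-titled samples was -2.44 (SE 0.543, adjusted p = 0.0218). The call was lost without PN1a 2 (-1.98, adjusted p = 0.159), PN1a 4 (adjusted p = 0.0692) or PN1a 5 (adjusted p = 0.0707). For PN1a against PN1b the log2 fold change was -1.29 (adjusted p = 0.234), which became -0.32 without PN1a 1 and 2 and -0.55 among samples that share the first title ending (the 5 PN1a samples with PN1b 5 and 6).

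*Hspa8*, the constitutive HSC70, spanned less. It was 8.10 and 8.23 in PN1a 1 and 2, 8.66, 8.75 and 8.37 in PN1a 3 to 5, and 8.65 to 9.12 (median 8.91) in PN1b. The number-titled samples were the lowest, but the log2 fold change against the letter-titled ones was -0.43 (SE 0.240, adjusted p = 0.341). For PN1a against PN1b it was -0.47 (SE 0.179, adjusted p = 0.175), and -0.30 without PN1a 1 and 2. *Hspa1l*, a member of the same chromosome 17 cluster, showed no such pattern, with 3.69 and 3.93 in PN1a 1 and 2 and 3.56 to 4.10 in PN1a 3 to 5 (log2 fold change -0.01, 95% confidence interval -0.77 to 0.74). The 5 probe sets of *Hspa4*, another HSP110 protein, ran from -0.73 to 0.36 in that comparison and none was called. *Hspa2*, *Hspa4l* and *Hspa14* were also not called in either comparison. As the samples are whole glands, fewer cells of a type and less RNA per cell cannot be told apart.

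**Figure D2:**
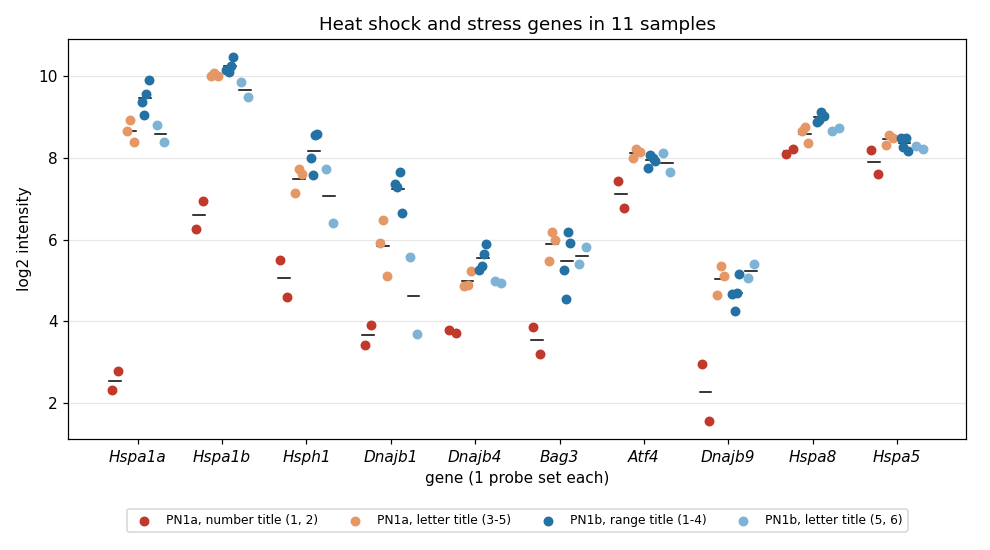
Log2 intensity of 10 chaperone and stress genes (1 probe set each) in the 11 samples. Points are samples, coloured by group and form of title, and black bars are the means of each colour. In Hspa1a the number-titled PN1a samples lie at 2.32 and 2.78 and the other 9 between 8.38 and 9.90, whereas in Hspa5 and Hspa8 the samples lie close together.

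*Hsp90aa1*, the inducible cytosolic HSP90, was 7.69 and 7.77 in PN1a 1 and 2, below all other samples. It was 8.58, 8.80 and 8.90 in PN1a 3 to 5 and 8.25 to 9.18 (median 8.69) in PN1b. Between number- and letter-titled samples it differed by -1.03 on the log2 scale (SE 0.304), which missed the threshold (adjusted p = 0.072). A dim second probe set of this gene gave 0.19 (adjusted p = 0.869).

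J proteins stimulate the ATPase of HSP70 and deliver its clients. The J protein list held 25 probe sets of the 20 such genes not placed in the ER or mitochondrial lists, wherever their proteins reside. Of these, *Dnajb4* was called lower in the number-titled samples and *Dnajc4* was called higher in PN1a than in PN1b. *Dnajb4* was 3.78 and 3.71 in PN1a 1 and 2, 4.87, 4.88 and 5.23 in PN1a 3 to 5, and 4.95 to 5.89 (median 5.31) in PN1b. Number-titled samples differed from letter-titled ones by -1.25 on the log2 scale (SE 0.304, adjusted p = 0.0324). The direction held when any 1 PN1a sample was left out, but the adjusted p then rose to between 0.0604 and 0.136.

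*Dnajb1* (HSP40), the main inducible partner of HSP70, was the most variable J protein. It was 3.43 and 3.90 in PN1a 1 and 2 and 5.92, 6.49 and 5.10 in PN1a 3 to 5. In PN1b it was 7.36, 7.28, 7.66 and 6.65 in the range-titled samples (PN1b 1 to 4) and 5.58 and 3.68 in PN1b 5 and 6. Low values thus occurred in both groups, and PN1b 6 lay between the number-titled PN1a samples. The gene was not called, at -2.17 between number- and letter-titled samples (SE 0.933, adjusted p = 0.211) and -1.40 between PN1a and PN1b (SE 0.719, adjusted p = 0.314). The difference between the lines was -0.53 without PN1a 1 and 2, and among samples of the first title ending it turned to 0.34. Within PN1b, the mean of PN1b 5 and 6 was 2.61 below that of the range-titled samples on the log2 scale, a difference that was not tested.

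*Dnaja1* and *Dnajb6*, J proteins of the cytosol and nucleus, were lowest in the number-titled samples as well. *Dnaja1* was 5.81 and 5.55 in PN1a 1 and 2, 6.56, 6.96 and 6.85 in PN1a 3 to 5, and 6.13 to 7.25 (median 6.76) in PN1b (log2 fold change within PN1a -1.11, adjusted p = 0.0568). *Dnajb6* was 5.49 and 4.87, then 6.13, 6.13 and 6.46, and in PN1b 5.93 to 6.96 (log2 fold change within PN1a -1.06, adjusted p = 0.0835). The second *Dnajb6* probe set gave -0.39 (adjusted p = 0.467). Neither gene was called. *Dnajc21*, a J protein of ribosome assembly, gave -0.55 between the lines (adjusted p = 0.198), and -0.36 without PN1a 1 and 2. The probe set with the highest mean among J proteins, of the splicing-associated *Dnajc8*, gave -0.06 (adjusted p = 0.889). Over all 25 J protein probe sets the log2 fold changes ran from -2.17 to 1.06 within PN1a and from -1.40 to 0.81 between the lines.

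The J protein with the clearest difference between the lines was *Dnajc4*. It was 2.94, 2.80, 3.15, 3.10 and 2.99 in PN1a and 1.89 to 2.53 (median 2.23) in PN1b. All 5 PN1a samples were above all 6 PN1b samples, which held for 1.58% of all probe sets. The log2 fold change was 0.81 (SE 0.168, adjusted p = 0.0259), and without PN1a 1 and 2 it was 0.89 (adjusted p = 0.0455). The mean signal of this probe set was below that of the median probe set in both groups. The call was lost without PN1a 3 (adjusted p = 0.0721), PN1a 4 (0.0597), PN1b 2 (0.0515), PN1b 3 (0.0638) or PN1b 4 (0.0589). With 16 added to each intensity the log2 fold change was 0.22, which is under the fold threshold. Among samples that share the first title ending, the 5 PN1a samples with PN1b 5 and 6, the log2 fold change was 0.89 (adjusted p = 0.517).

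Transcription factors of the stress responses and the HSP70 co-chaperone *Bag3* had 6 probe sets. All 6 had lower means in the number-titled than in the letter-titled samples (median log2 fold change -1.16, against 0.03 for all probe sets), and the groups did not overlap in any of the 6. Number-titled samples lay below the letter-titled ones without overlap in 26 of the 95 members (background 19.1%) and above them in 11 (background 20.1%). In 4 of the 6 both number-titled samples were below all 9 other samples, and 2 were called.

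*Bag3*, an HSF1 target that couples HSP70 to autophagy, has 2 probe sets. The brighter one, at 5.23 in both number-titled samples and 6.76, 7.35 and 6.09 in the letter-titled ones, was 2.83-fold lower in the former (95% confidence interval of the log2 fold change -2.49 to -0.52) and was not called (adjusted p = 0.0775). The other was 3.86 and 3.21 in PN1a 1 and 2. It was 5.48, 6.20 and 6.00 in PN1a 3 to 5, and 4.54 to 6.18 (median 5.61) in PN1b. The log2 fold change within PN1a was -2.36 (SE 0.434, adjusted p = 0.00747), which without PN1a 2 became -2.03 (adjusted p = 0.0746). Both probe sets placed the number-titled samples below all others.

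*Atf4*, the transcription factor of the integrated stress response, was 7.44 and 6.78 in PN1a 1 and 2, 8.00, 8.21 and 8.15 in PN1a 3 to 5, and 7.66 to 8.11 (median 7.96) in PN1b. Within PN1a it differed by -1.01 on the log2 scale (SE 0.261, adjusted p = 0.0417). This call was close to the threshold and was lost without PN1a 2 (-0.68, adjusted p = 0.268), without any of PN1a 3, 4 and 5 (adjusted p of 0.0728 to 0.117) and without PN1b 1, 3 or 4 (0.0577 to 0.0627). It was also lost with quantile normalization repeated (adjusted p = 0.0645) and with median centring (0.0515).

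*Ddit3* (CHOP), a target of ATF4, was 4.28 and 3.01 in PN1a 1 and 2, 5.19, 4.94 and 4.72 in PN1a 3 to 5, and 4.75 to 6.04 (median 5.55) in PN1b. The number-titled samples were the lowest. Its log2 fold change was -1.31 within PN1a (SE 0.436, adjusted p = 0.108) and -0.98 for PN1a against PN1b (SE 0.370, adjusted p = 0.171). The latter became -0.46 without PN1a 1 and 2 and -0.36 among samples of the first title ending. *Xbp1* was 6.03 and 5.22 in PN1a 1 and 2 and 6.14 to 6.47 in PN1a 3 to 5 (log2 fold change -0.67, adjusted p = 0.21). The difference between PN1a and PN1b in *Xbp1* was 0.02 (95% confidence interval -0.47 to 0.50). *Hsf2*, a relative of HSF1, was dim and gave -0.58 within PN1a (adjusted p = 0.57).

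ER chaperones lay on both sides of 0 in the same comparison. Of their 22 probe sets 13 were higher in the number-titled than in the letter-titled samples and 9 were lower, with log2 fold changes from -2.77 to 1.26 and a median of 0.07. *Hspa5*, the central HSP70 of the ER, was 8.20 and 7.61 in PN1a 1 and 2, 8.31, 8.56 and 8.50 in PN1a 3 to 5, and 8.18 to 8.50 (median 8.29) in PN1b. PN1a 1 lay within the range of PN1b and PN1a 2 below it, and the log2 fold change within PN1a was -0.55 (SE 0.249, adjusted p = 0.232). PN1a and PN1b differed in *Hspa5* by -0.09 (95% confidence interval -0.51 to 0.33).

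*Hsp90b1* (GRP94), the HSP90 of the ER, was 8.37 and 8.05 in PN1a 1 and 2, 8.13, 8.13 and 8.30 in PN1a 3 to 5, and 8.06 to 8.47 (median 8.29) in PN1b. Its samples lay within 0.42 of each other, and the log2 fold changes were 0.02 within PN1a (95% confidence interval -0.48 to 0.53) and -0.11 between the lines (95% confidence interval -0.44 to 0.23).

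The called ER gene was *Dnajb9* (ERdj4), an ER J protein induced by XBP1. It was 2.96 and 1.57 in PN1a 1 and 2, 4.64, 5.36 and 5.11 in PN1a 3 to 5, and 4.25 to 5.41 (median 4.88) in PN1b. The number-titled samples were below all others. Within PN1a the log2 fold change was -2.77 (SE 0.426, adjusted p = 0.00237), and the call held with each sample left out in turn. With 16 added to each intensity it was -1.21. A dimmer *Dnajb9* probe set had the same direction (-1.05, adjusted p = 0.136). Between the lines *Dnajb9* gave -0.95 (adjusted p = 0.401), and 0.16 without PN1a 1 and 2. *Dnajc3* (p58IPK), an ER J protein, was 2.57 and 2.19 in PN1a 1 and 2 by its brightest probe set, 2.72, 3.49 and 3.63 in PN1a 3 to 5 and 3.08 to 4.12 in PN1b. Its log2 fold change was -0.64 between the lines (adjusted p = 0.234) and -0.90 within PN1a (adjusted p = 0.163), while the other 3 probe sets of the gene gave 0.35, 0.41 and 1.02 between the lines.

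Of the protein disulfide isomerases, which form and rearrange disulfide bonds, *Pdia3*, *Pdia4* and *Pdia6* had means above those of PN1b in PN1a, none of them called, and the probe sets of *P4hb* gave 0.15 and -0.11. *Pdia4* was 6.13, 6.33, 5.97, 5.78 and 5.50 in PN1a and 5.19 to 5.58 (median 5.33) in PN1b, with PN1a 5 the only PN1a sample within the range of PN1b. The log2 fold change between the lines was 0.59 (SE 0.182, adjusted p = 0.1), and 0.40 without PN1a 1 and 2. *Pdia3* was 7.01, 6.81, 6.66, 6.77 and 6.29 in PN1a and 5.92 to 6.50 (median 6.37) in PN1b, a log2 fold change of 0.42 (adjusted p = 0.243), and 0.28 without PN1a 1 and 2. In both genes the number-titled samples were the highest of the 11. *Pdia6* had 3 probe sets with log2 fold changes between the lines of 0.90, 1.20 and 0.31 (adjusted p of 0.207, 0.17 and 0.493). *Canx* (calnexin), which binds glycoproteins, gave 0.52 and 0.28 with its 2 probe sets (adjusted p of 0.224 and 0.582), and 0.20 and -0.06 among samples of the first title ending. None of these was called in either comparison in the main fit. Between the lines *Pdia4* passed with probe sets above the median level alone (adjusted p = 0.0457) and at the threshold of the methods' t-test. Of 8 macrophage markers, *C1qb* and *Cd68* were called higher in PN1a. The mean of that list relative to all 11 samples ran from -0.02 to 1.65 in PN1a and from -1.60 to 0.00 in PN1b. Plasma cells also carry a large ER. Of 5 B and plasma cell markers *Pou2af1* was called lower in PN1a (1.43 to 1.94 against 3.20 to 4.07 in PN1b, log2 fold change -1.86, adjusted p = 0.000128). *Jchain*, of plasma cells, was 1.53 in PN1a 2 and 4.60 to 7.33 elsewhere. The mean of the list was -0.01 and -1.004 in PN1a 1 and 2, -0.71 to -0.25 in PN1a 3 to 5 and -0.15 to 0.99 in PN1b. No marker of either list was at the floor of the table, and the part of macrophages and of B and plasma cells in these values was not tested.

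TRiC is a ring of 8 different subunits, of which *Tcp1* is the first. No probe set of the 14 was called in the main limma fit. An unadjusted p under 0.05 was found for 5 between the lines (18.9% of all probe sets) and 1 within PN1a (20.6% of all probe sets). *Tcp1* was 4.84, 4.46, 4.81, 4.44 and 5.19 in PN1a and 2.98 to 4.40 (median 3.74) in PN1b, so that all PN1a samples were above all PN1b samples. Its log2 fold change was 1.01 (SE 0.252) with an adjusted p of 0.0522, and letter-titled PN1a against PN1b gave 1.07. Among samples of the first title ending it was 0.63. It passed the threshold when quantile normalization was repeated (adjusted p = 0.0418), with median centring (0.0435) and without PN1b 5 (0.0232). It also passed with probe sets above the median level alone (0.0289), with eBayes using trend and robust (0.0342) and at the threshold of the methods' t-test. The other *Tcp1* probe set, which was dimmer, gave 0.04 (95% confidence interval -0.63 to 0.71).

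*Cct4* was 6.95, 7.04, 7.12, 6.85 and 7.28 in PN1a and 6.29 to 6.66 (median 6.60) in PN1b, again without overlap. Its log2 fold change was 0.49 (SE 0.157, adjusted p = 0.109). The brightest of 3 *Cct3* probe sets gave a log2 fold change of 0.61 (adjusted p = 0.125) and passed only at the threshold of the methods' t-test. Another separated the lines and was 1.99-fold higher in PN1a (adjusted p = 0.104), and the last gave 0.30 (adjusted p = 0.398). Of the 95 members 4 lay higher in all PN1a than in all PN1b samples (4.21%, background 1.58%), namely *Tcp1*, *Cct4*, *Cct3* and *Dnajc4*, and none lay lower (background 2.38%).

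Among the other subunits, the brightest probe sets of *Cct5*, *Cct7* and *Cct8* gave log2 fold changes of -0.05, 0.01 and 0.06. *Cct2* was 5.43 in PN1a 1 and 3.16 in PN1a 2, while the other 9 samples had 5.10 to 5.62, and it was not called in either comparison (-0.33 between the lines, adjusted p = 0.687). *Cct6a* gave 0.42 between the lines (adjusted p = 0.278). *Cct6b*, the testis form of that subunit, was dim in all samples and gave -0.48 (adjusted p = 0.223). Between number- and letter-titled samples the 14 TRiC probe sets had a median of 0.05.

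The lists of mitochondrial chaperones and of small heat shock proteins held no called member by limma. None of their 11 probe sets had an unadjusted p under 0.05 in either comparison. Of all probe sets 18.9% did between the lines and 20.6% within PN1a. *Hspd1* (HSP60) was 7.86 and 7.70 in PN1a 1 and 2, 7.95, 8.31 and 8.07 in PN1a 3 to 5, and 7.93 to 8.67 (median 8.17) in PN1b. Its partner *Hspe1* (HSP10) was 8.29 and 8.15, then 8.49, 8.74 and 8.52, and in PN1b 8.00 to 9.20 (median 8.66). The log2 fold changes between the lines were -0.27 for *Hspd1* and -0.21 for *Hspe1*, and within PN1a -0.33 and -0.36, all with adjusted p above 0.49. *Hspa9* (mortalin) gave 0.12 between the lines (95% confidence interval -0.53 to 0.77). The mitochondrial J proteins *Dnajc15* and *Dnaja3* gave 0.27 and 0.09. *Hspb8*, the small heat shock protein that works with BAG3, was 5.89 and 4.12 in PN1a 1 and 2 and 5.42 to 6.30 in PN1a 3 to 5 (log2 fold change -0.94, SE 0.463, adjusted p = 0.279). *Hspb1* (HSP25) stayed between 0.82 and 2.00 in all samples. *Hspb2* gave -0.34 (adjusted p = 0.334) between the lines by its brightest probe set. *Hspb11*, which was placed in neither of these lists, gave 0.32 (adjusted p = 0.491). *Hspbp1*, which releases nucleotide from HSP70, was 4.76 and 5.13 in the number-titled samples, above the 3.42 to 4.45 of the other 9, and was not called (log2 fold change within PN1a 0.82, adjusted p = 0.173).

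Other genes of these pathways were described by lists. A list of 19 co-chaperone and prefoldin genes held mostly cytosolic ones, such as *Stip1* and *St13*, and the mitochondrial *Grpel1* and *Grpel2*. None of the 19 was called in either comparison by limma, with medians of -0.06 between the lines and 0.11 within PN1a. An unadjusted p under 0.05 was found for 2 of them between the lines and 6 within PN1a. Among all probe sets the shares were 18.9% between the lines and 20.6% within PN1a. Of 26 other genes of ER folding and the unfolded protein response, none was called between the lines (8 had an unadjusted p under 0.05) and 3 were called lower in the number-titled samples. These were *Atf3* (log2 fold change -5.41, adjusted p = 7.42e-06) and *Ppp1r15a* (-3.02, adjusted p = 6.61e-05), both targets of ATF4, and *Nfe2l2* (-1.94, adjusted p = 0.00251), the regulator of oxidative stress genes. *Atf3* was 2.48 and 3.08 in PN1a 1 and 2 and 7.78 to 9.25 in the other 9 samples.

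Immediate early genes, which cells switch on within minutes of a stimulus, were low in the same samples. Of 19 genes, 15 were called lower in the number-titled than in the letter-titled samples, and in 17 both number-titled samples lay below all other samples. *Fos* was 4.02 and 3.87 in PN1a 1 and 2 and 7.94 to 9.29 in the other 9 samples. The mean of the list relative to all 11 samples was -1.90 and -2.02 in PN1a 1 and 2 and 0.09 to 0.76 elsewhere. The 13 HSP70 and HSP110 probe sets had -0.90 and -0.98 against -0.01 to 0.51, and the 6 probe sets of stress transcription factors and *Bag3* had -0.72 and -1.16 against -0.32 to 0.52. The J proteins had -0.27 and -0.23 against -0.18 to 0.26, and the list of other ER folding and unfolded protein response genes had -0.13 and -0.60 against -0.02 to 0.23. The ER chaperones had 0.31 and -0.15 against -0.41 to 0.22, which overlaps. A few genes can carry such means. Between number- and letter-titled samples the median log2 fold change was -0.32 for HSP70 and HSP110 (10 of 13 below 0) and -0.11 for J proteins (15 of 25). It was -0.06 for the other ER folding list (14 of 26), where *Atf3* alone gave -5.41.

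Some markers of the epithelium, of fat and of macrophages also differed in PN1a 1 and 2. Of 6 luminal markers, *Krt8*, *Krt18* and *Krt19* were called lower in the number-titled than in the letter-titled samples. Of the 6, 5 had a log2 fold change below 0, and *Cdh1* was above it (0.36). The mean of the list was -1.46 and -0.19 in PN1a 1 and 2, 0.70 to 0.89 in PN1a 3 to 5 and -0.32 to 0.14 in PN1b. Of 6 basal markers *Myh11* (log2 fold change -2.80) and *Krt17* (-1.94) were called lower in the same comparison. Of the 6, 5 were below 0, among them *Trp63* at only -0.18, and *Krt14* was above it (0.97, not called). The mean of the list was -1.19 and -0.55 in PN1a 1 and 2 against -0.26 to 0.70 in the other 9 samples. Of 5 adipocyte markers *Lpl* (-2.18) was called lower, with a list mean of -0.60 and -0.87 in PN1a 1 and 2 against -0.22 to 0.77. Of the 5, 3 were below 0, while *Fabp4* (0.24) and *Lep* (0.025) were not. No marker of these 3 lists was exactly at the floor of the table. The lowest value was 0.01 among basal and 0.09 among adipocyte markers, close to that floor, and 2.61 among luminal markers. Of the 8 macrophage markers *Cd14* (-2.13, adjusted p = 0.017) was called lower in the number-titled samples. *C1qa* (2.88), *C1qb* (1.64) and *C1qc* (1.77) were not called, but both number-titled samples lay above all 9 others. Of the 8, 2 were below 0. The mean of the list was 1.65 and 0.63 in PN1a 1 and 2 and -0.02 to 0.93 in PN1a 3 to 5. The part of 18S RNA, of RNA quality, of epithelial, fat and macrophage content and of the immediate early genes in the chaperone values of PN1a 1 and 2 was not tested.

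**Figure D3:**
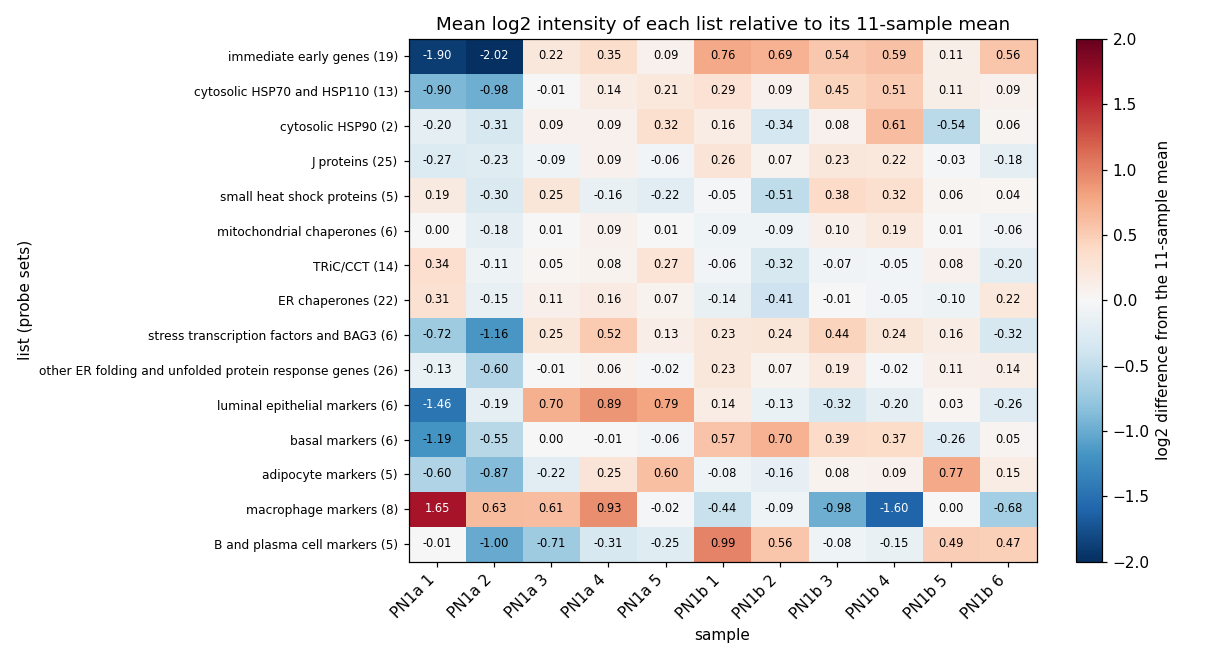
Mean log2 intensity of each list in each sample, relative to the mean of that list over the 11 samples. Rows are lists with their number of probe sets, columns are samples, and colour runs from blue (lower) to red (higher). The immediate early, HSP70, J protein, stress transcription factor, other ER folding, basal and adipocyte rows are lowest in PN1a 1 and 2, and the ER chaperone row is not. A row mean can rest on a few genes with large differences, such as Atf3 in the other ER folding row.

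Within PN1b, the 2 samples with letters in their titles lay below the 4 range-titled samples in 21 members (22.1%, background 14.8%) and above them in 9 (9.47%, background 11.7%). The 21 included *Hspa1a*, *Hspa1b*, *Hspa8*, *Dnajb1*, *Dnajb4*, *Ddit3* and the brighter *Bag3* probe set. *Cct7*, *Dnajc7*, *Dnajc9*, *Hspa2* and *Hspe1* were also among the 21. The 9 above included the dimmer *Dnajb9* probe set (mean difference 0.58). The mean difference was -0.88 for *Hspa1a*, -0.57 for *Hspa1b* and -0.93 for *Ddit3* on the log2 scale. The same genes gave -6.11, -3.43 and -1.31 between number- and letter-titled PN1a samples. *Dnajb1*, at -2.61 within PN1b, gave -2.17 there. Other probe sets called within PN1a overlapped between the PN1b title forms. They were *Hsph1* (-1.11), *Atf4* (-0.055), the dimmer *Bag3* probe set (0.14) and the brighter *Dnajb9* probe set (0.54), the last 2 in the opposite direction. The differences within PN1b were not tested. The titles of PN1b 5 and 6 also have an ending that PN1b 1 to 4 lack, and the form of title and its ending cannot be told apart within PN1b. The *Gapdh* 3' to 5' log2 ratio was 1.12 and 2.38 in PN1b 5 and 6 and 0.32 to 0.63 in PN1b 1 to 4, and that of the pyruvate carboxylase control was 1.40 and 2.25 against 2.64 to 3.11. The beta-actin ratio (0.97 and 2.27 against 0.40 to 1.04) and that of the transferrin receptor (0.53 and 1.29 against 0.97 to 1.41) overlapped. The part of RNA quality in these differences was not tested. In the immediate early list PN1b 5 and 6 had 0.11 and 0.56, against 0.54 to 0.76 in PN1b 1 to 4.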

How the data were processed

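RNA of 5 PN1a and 6 PN1b mammary glands was measured on Affymetrix MG_U74Av2 arrays, 1 per sample. The deposited values are linear intensities that the authors made with dChip (PM-MM model, then quantile normalization). No source used here gives the dChip version. The table holds 12488 probe sets, and 66 array controls were left out. Sample medians ran from 8.57 to 8.94 in PN1a and from 8.88 to 9.51 in PN1b, 0.813% of values lay at the lowest value of 1, and no pair of samples shared more than 1.24% of its values. Precision is limited by how many arrays there are.

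Log2 was taken without a pseudocount and compared with limma 3.58.1 (lmFit and eBayes, R 4.3.3, two-sided, no covariate, Benjamini-Hochberg over 12422 probe sets). Gene names came from the array's annotation with symbols updated where the gene identifier allowed. Of the probe sets 10833 carry 1 symbol, 396 several and 1193 none here. A pair of probe sets that name *Dnajc19* together with another gene was left out. PN1a was compared with PN1b in 1 fit, and number-titled, letter-titled and PN1b samples were held as 3 groups in another. The samples share 3 title endings, whose meaning is not given, and these were tried as a block. Promoters came from RefSeq (GRCm38.p6). The plots used matplotlib 3.10.9 under Python 3.11.15. The steps were tested on simulated data.

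The members, role lists, other gene lists and both comparisons were chosen with earlier results of these data known. Named genes are every called member, in each role the probe set with the highest mean and up to 4 with the smallest adjusted p between the lines, and a fixed set of heat shock and ER stress genes. Where a gene has several probe sets the brightest is given first, and others where they differ. *Dnaja1*, *Hspa1l*, *Hspa2*, *Hspa4*, *Hspa4l*, *Hspa9*, *Hspa14*, *P4hb*, *Pdia3*, *Cct2*, *Cct6a*, *Cct5* and *Cct8* lie outside that rule and were named after their values were seen. The alternatives are the methods' t-test, repeated quantile normalization, median centring, a filter at the median level, log2(value + 16), eBayes with trend and robust, other fold thresholds, title ending as a block and each sample left out. The methods' t-test with Benjamini-Hochberg was added after the data were seen. Promoter motifs and list medians were described without a test.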

Additional observations from a re-analysis of the deposited data

Results flagged for a closer look

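Of 76 sets of values tested for a single sample far from the rest, 1 stood out, and chance alone gives about 1 in 20. *Cct4* in PN1b 2 was 6.29 on the log2 scale, the lowest of the 6 PN1b samples, while the nearest was 6.57 and the highest 6.66. The gap to the nearest sample was 0.757 of the range of the group.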

How the results depend on the processing

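The 1 member called between PN1a and PN1b became 2 with quantile normalization repeated, with median centring, with probe sets above the median level alone and with eBayes using trend and robust. It became 4 with the methods' t-test at an unadjusted p under 0.01 and a fold over 1.5 (1 after Benjamini-Hochberg), and 0 with log2(value + 16), with a fold of at least 2, with title ending as a fixed block and within the samples of the first title ending. With each sample left out it ran from 0 to 2. Calls over all probe sets moved too, from 108 higher and 201 lower in the main fit. They became 148 and 284 with trend and robust, and 271 and 442 with the methods' t-test at its own threshold. With log2(value + 16) they fell to 65 and 148. They were 12 and 19 with the fixed block, and 6 and 12 within the first title ending. With each sample left out they ran from 44 and 82 (without PN1b 3) to 182 and 377 (without PN1b 5).

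The 7 members called between number- and letter-titled PN1a samples, all lower, became 11 with probe sets above the median level alone, 11 with eBayes using trend and robust, and 12 with title ending as a fixed block, and these 3 settings kept all 7. Over all probe sets the main fit called 156 higher and 526 lower. In these 3 settings, in the same order, the calls were 229 and 617, 226 and 655, and 231 and 659. The methods' t-test gave 7 members at its own threshold, of which 5 were shared, and 0 after Benjamini-Hochberg. Its calls over all probe sets were 157 and 399, and 5 and 20 after Benjamini-Hochberg. With each sample left out the count of members ran from 3 (without PN1a 2) to 10 (without PN1b 6). It was 4 without PN1a 4 or PN1a 5. Over all probe sets the calls were 101 higher and 298 lower without PN1a 2, and 178 and 540 without PN1b 6. *Hspa1a* and *Hspa1b* were called under every setting except the t-test with Benjamini-Hochberg (adjusted p = 0.0541 and 0.103), and *Dnajb9* under every setting except both t-test settings. The cause of these shifts was not tested.

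Among values of single probe sets, 1713 kept their side of the threshold, 37 lost a call, 26 gained one and none reversed a called direction. No paired analysis was possible because the labels give no replicate numbers. With 2 number-titled samples, the spread of that group rests on few values, and dim probe sets such as *Dnajc4* lie near the background of the arrays.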
